A study of Mus musculus with 11 samples.

Results

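The 10 genes described here carry the MHC class I pathway of antigen presentation in the mouse: B2m, H2-K1 and H2-D1, which encode the molecule itself, Tap1, Tap2 and Tapbp, which load it, Psmb8, Psmb9 and Psmb10, the immunoproteasome subunits, and Psme1, a subunit of a proteasome activator. Their probes were found through the RefSeq accession printed for each spot, and all 10 were measured, among 25998 features tested on the arrays. RNA was taken from right hemisphere cortex of 22 C57/Bl6J mice aged 5 to 7 months, and compared on 11 two-colour Agilent arrays that each held 2 mice, 1 in Cy5 and 1 in Cy3. The TC group (n = 6) was transgenic for GFA2-tTa and TetO-VP16-CREB and had a cryolesion, a focal cold injury from a dry ice pellet held on the brain for 30 s, with tissue taken 3 days later. The WTC group (n = 5) was wild type with the same lesion, the T group (n = 5) carried both transgenes without a lesion, and the WT group (n = 6) was wild type without one. The pair of transgenes makes a constitutively active CREB, a transcription factor that binds cAMP response elements, in astrocytes. The promoter named GFA2 drives the tetracycline transactivator in those cells.

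Each mouse was on 1 array, so a p-value here measures the spread between animals. All WT mice were on the first slide of arrays, with 3 T, 2 WTC and 1 TC mice, and the second slide held 2 T, 3 WTC and 5 TC mice. For arrays I, J and K the labels of the second channel give another group than the titles: TC113 and TC124 are called T there and T132 is called TC. The groups used here are those of the titles. Markers of cortical neurons were well above background, with a mean level of 7 genes between 10.75 and 13.54 on the log2 intensity scale in the 22 mice. Markers of striatum and choroid plexus, which lie next to cortex, varied far more, with mean levels from 8.60 to 12.68 and from 7.51 to 12.98. TC113 stood apart from the other lesioned mice, and results that rest on it are given with and without it.

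MHC class I molecules show peptides from inside the cell to CD8 T cells. Proteasomes cut proteins into these peptides, the TAP transporter moves them into the endoplasmic reticulum, and tapasin helps to place them on the heavy chain. The heavy chain leaves for the cell surface mainly with beta-2 microglobulin. Interferons raise the whole set, and replace the standard catalytic subunits of the proteasome with the immunoproteasome ones. In healthy brain these genes are low, above all in neurons, and microglia, endothelium and astrocytes can raise them after injury.

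The promoters of the class I genes are known for a conserved module that holds a CRE-like X2 box and an inverted CCAAT (Y) box. As the transgene encodes a CREB, the RefSeq promoter windows (build GRCm38.p6, 250 bases before to 50 after the transcription start) of 4 members are shown, with every match to a searched motif in capitals. The B2m window is chr2:122147437-122147736 (plus strand), that of H2-K1 is chr17:34000298-34000597 (minus strand, 1 of the 2 windows used for this gene), that of H2-D1 is chr17:35262844-35263143 (plus strand) and that of Tap1 is chr17:34187306-34187605 (plus strand).
B2m: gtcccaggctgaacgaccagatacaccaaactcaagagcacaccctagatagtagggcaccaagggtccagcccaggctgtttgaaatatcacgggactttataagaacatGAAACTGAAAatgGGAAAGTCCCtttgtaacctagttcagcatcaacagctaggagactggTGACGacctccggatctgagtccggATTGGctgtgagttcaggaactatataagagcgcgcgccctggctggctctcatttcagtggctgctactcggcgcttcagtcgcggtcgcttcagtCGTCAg
H2-K1: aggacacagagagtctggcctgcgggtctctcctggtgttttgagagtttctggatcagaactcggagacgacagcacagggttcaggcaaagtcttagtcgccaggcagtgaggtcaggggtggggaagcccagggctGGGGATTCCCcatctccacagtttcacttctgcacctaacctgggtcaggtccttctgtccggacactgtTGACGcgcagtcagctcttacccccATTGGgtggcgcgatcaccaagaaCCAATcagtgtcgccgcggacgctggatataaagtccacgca
H2-D1: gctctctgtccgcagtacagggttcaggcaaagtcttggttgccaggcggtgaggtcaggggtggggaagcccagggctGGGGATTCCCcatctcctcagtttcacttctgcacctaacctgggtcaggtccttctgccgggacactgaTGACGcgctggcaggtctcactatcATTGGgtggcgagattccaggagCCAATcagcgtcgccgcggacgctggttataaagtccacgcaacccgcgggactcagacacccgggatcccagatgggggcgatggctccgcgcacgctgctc
Tap1: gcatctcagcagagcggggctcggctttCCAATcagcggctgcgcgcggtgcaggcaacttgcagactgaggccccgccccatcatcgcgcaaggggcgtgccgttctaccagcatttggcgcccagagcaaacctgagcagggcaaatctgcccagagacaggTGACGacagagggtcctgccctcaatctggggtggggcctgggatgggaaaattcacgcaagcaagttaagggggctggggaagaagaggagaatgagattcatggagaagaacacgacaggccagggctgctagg

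Both strands were searched for 6 motifs, and 9 of the 10 members have a window (Tap2 has none in the table). The full cAMP response element, TGACGTCA, was in 0 of the 9 members' windows, against 1.8% of 32851 mouse windows. Its 5-base part TGACG was in 5 (B2m, H2-K1, H2-D1, Tap1 and Psmb9) against 20.8% of windows, and the box CCAAT was in 6 (these 5 and Tapbp) against 37.4%. An NF-kB motif was in 3, B2m, H2-K1 and H2-D1, against 4.8% of windows. An interferon-stimulated response element was in 2, B2m and Psme1, against 3.4%, and the STAT motif TTCNNNGAA only in Psmb8, among these 9, against 8.3%. The Psmb10 window held none of the 6 motifs. A match is a description of the letters and says nothing of binding.

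In B2m, H2-K1 and H2-D1 the letters TGACG were followed by ATTGG, the inverted CCAAT, and the first letters of these lay 25 bases apart in all 3 genes. TGACG began at -78 in B2m, at -41 in H2-K1 and at -101 in H2-D1, counted from the transcription start. From the start of the other H2-K1 window it was at -55. The spacing was searched for after the matches had been seen. It occurred in 31 of the 32851 windows (0.094%), and these included that of H2-M3, another class I gene. The windows of Tap1 and Psmb9, which are transcribed away from each other, overlap by 275 bases (chr17:34187306-34187580). The TGACG in both is thus 1 site read from either side, and so is the CCAAT, though each gene is counted for it above.

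Of the 10 genes, 7 lie on chromosome 17, where the mouse MHC is: H2-K1, H2-D1, Tap1, Tap2, Tapbp, Psmb8 and Psmb9. B2m is on chromosome 2, Psmb10 on chromosome 8 and Psme1 on chromosome 14. All 10 were well above background in the channels of all 22 mice. Levels are given per mouse as log2 intensity after normalization between arrays, and levels of different genes are not set against each other, since each comes from its own probe. For H2-K1, Tap1 and Psme1, whose probes were spotted 10 times, the log2 ratio of a single array differed between spots by an SD of 0.067, 0.101 and 0.063 on average over the arrays. This is the SD of ratios of single spots, while a level per mouse is of 1 channel and averages the spots of its probe. It is thus not the error of a level, and the SD between mice of a group is not set against it. Between mice, the lowest SD of these 3 genes was that of Tap1 in T mice, at 0.113. Class I genes resemble each other in sequence, and how far the probes of H2-K1, H2-D1 and their relatives read each other's RNA was not tested. In bulk tissue, more cells of a type and more RNA per cell cannot be told apart.

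The light chain gene B2m was at 13.40, 14.33 and 15.60 (lowest, median and highest) in TC mice. It was at 13.66, 14.29, 14.18, 14.79 and 14.91 in WTC mice. In T mice it was at 13.23, 12.84, 12.78, 13.66 and 13.98, and in WT mice at 12.82, 13.02 and 13.81 (lowest, median and highest). The lesioned groups were the higher ones, but the ranges overlapped: the lowest TC and WTC mice lay below the highest T and WT mice.

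The heavy chain gene H2-D1 was at 12.89, 13.55 and 14.70 in TC mice (lowest, median and highest). It was at 12.44, 13.04, 13.14, 13.47 and 14.08 in WTC mice. T mice were at 12.32, 11.85, 11.70, 12.65 and 12.79, and WT mice at 11.58, 12.08 and 12.85. Every TC mouse was above every T mouse, while the lowest WTC mouse was below the highest WT mouse. The other heavy chain gene, H2-K1, averaged 13.92 ± 0.85 in TC (SD, n = 6), 13.57 ± 0.75 in WTC (n = 5), 12.46 ± 0.47 in T (n = 5) and 12.40 ± 0.46 in WT mice (n = 6). Its lowest TC mouse, at 12.71, lay below the highest T mouse, at 13.09.

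Of the peptide transporter subunits, Tap2 separated lesioned from intact mice in both genotypes. It was at 11.21, 11.84 and 12.50 in TC mice (lowest, median and highest), against 10.74, 10.88, 11.03, 10.78 and 10.88 in T mice. It was at 11.51, 12.10, 12.08, 11.98 and 13.07 in WTC mice, against 10.53, 10.82 and 11.44 in WT mice. All lesioned mice were above all intact mice of their genotype. Tap1, the other subunit, averaged 7.73 ± 0.72 in TC, 7.49 ± 0.35 in WTC, 6.79 ± 0.11 in T and 6.71 ± 0.28 in WT mice (SD, n = 6, 5, 5 and 6). Tapbp, the tapasin gene, averaged 11.03 ± 0.56 in TC, 11.30 ± 0.70 in WTC, 10.17 ± 0.09 in T and 10.17 ± 0.22 in WT mice. For both, the groups overlapped in each genotype, and the spread among lesioned mice was wider than among intact mice.

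Psmb8, the immunoproteasome subunit that replaces Psmb5, was at 9.57, 11.40 and 12.48 in TC mice (lowest, median and highest). It was at 10.26, 11.08, 11.05, 11.53 and 11.87 in WTC mice. T mice were at 9.52, 9.14, 9.26, 9.76 and 10.05, and WT mice at 9.01, 9.16 and 10.19. Every WTC mouse was above every WT mouse, but 1 TC mouse, TC113, lay within the range of the T mice. Psmb9, which replaces Psmb6, averaged 10.90 ± 1.02 in TC, 10.97 ± 0.74 in WTC, 9.40 ± 0.40 in T and 9.34 ± 0.41 in WT mice. Psmb10, which replaces Psmb7, varied least: its level was 13.96 to 14.68 in TC, 13.67 to 14.66 in WTC, 13.93 to 14.29 in T and 13.76 to 14.13 in WT mice, so that all groups overlapped.

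Psme1 encodes the alpha subunit of the PA28 activator, which opens the proteasome core. It was at 12.34, 12.74 and 12.97 in TC mice (lowest, median and highest), against 12.06, 12.003, 12.23, 12.31 and 12.32 in T mice. It was at 12.39, 12.75, 13.02, 12.74 and 13.08 in WTC mice, against 11.93, 12.03 and 12.22 in WT mice. As for Tap2, no lesioned mouse overlapped with an intact mouse of its genotype, though TC113, the lowest TC mouse, was only just above the highest T mouse.

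**Figure D1:**
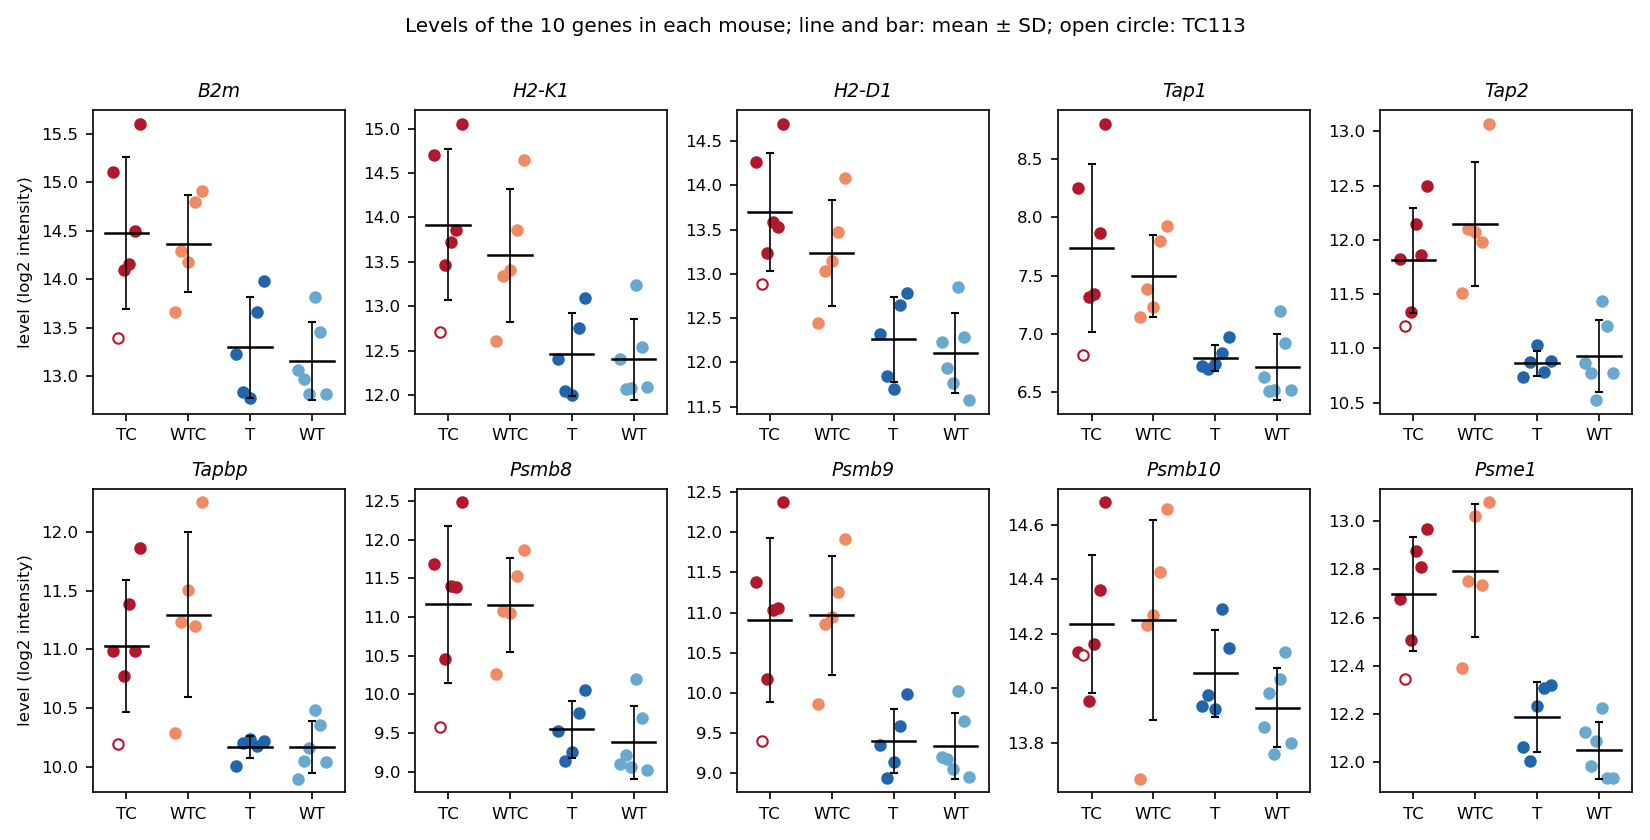
Level of each gene (vertical axis, log2 intensity, own scale per panel) in every mouse of the TC, WTC, T and WT groups, with the mean and SD of each group. The open circle is TC113, which is the lowest TC mouse for 9 of the 10 genes, and the Psmb10 panel spans the narrowest range of levels.

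The first comparison asked what the lesion did to these genes in transgenic and in wild-type cortex. In TC over T the 10 genes had a median log2 ratio of 0.75, against 0.005 for all features, and in WTC over WT it was 0.75, against 0.003. The ratio was above 0 for 9 of 10 genes in TC over T, with Psmb10 as the exception at -0.03, and for 10 of 10 in WTC over WT. The largest was that of Psmb8 in both, at 1.04 ± 0.45 (SE; 2.05-fold) in TC over T and 1.23 ± 0.46 (2.35-fold) in WTC over WT.

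None of these ratios passed limma's test on the 11 within-array ratios at an adjusted p under 0.05: 0 of 10 genes did in TC over T, where 0% of all features passed, and 0 of 10 in WTC over WT, where 0.0231% did. The fit had 7 residual degrees of freedom. At an unadjusted p under 0.05 there were 5 of 10 genes in each comparison, among 3099 and 5082 of the 25998 features. In TC over T, H2-D1 had a log2 ratio of 0.98 ± 0.37 (adjusted p = 0.37), H2-K1 0.95 ± 0.44 (adjusted p = 0.43) and Tap2 0.76 ± 0.24 (adjusted p = 0.31). Psmb9 was at 0.84 ± 0.43, B2m at 0.75 ± 0.42, Tap1 at 0.69 ± 0.29, Tapbp at 0.49 ± 0.19 and Psme1 at 0.24 ± 0.12. The members with the smallest adjusted p in WTC over WT were Tap2 at 0.95 ± 0.24, Tapbp at 0.75 ± 0.19 and Psme1 at 0.48 ± 0.13 (adjusted p = 0.113, 0.114 and 0.115). Psmb9 was at 1.0 ± 0.44, B2m at 0.84 ± 0.43, H2-K1 at 0.76 ± 0.45, H2-D1 at 0.71 ± 0.38, Tap1 at 0.59 ± 0.30 and Psmb10 at 0.06 ± 0.12.

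The fit that also uses the channels' own levels (separate-channel fit, limma with the correlation between channels of a spot, 17 residual degrees of freedom) passed many more. In TC over T, 7 of 10 genes were higher, where 4.7% of all features were: Tap1, Tap2, H2-K1, H2-D1, Psmb8, Psmb9 and Psme1. Of these, Psmb8 rose by 1.44 ± 0.37 (2.72-fold, adjusted p = 0.026), H2-K1 by 1.30 ± 0.36 (2.47-fold, adjusted p = 0.034) and H2-D1 by 1.29 ± 0.31 (2.45-fold, adjusted p = 0.018). B2m, at 1.04 ± 0.32 (adjusted p = 0.054), and Tapbp, at 0.75 ± 0.23 (adjusted p = 0.056), did not pass. In WTC over WT, 9 of 10 genes were higher, where 14.3% of all features were, and Psmb10 was the one that did not pass (0.25 ± 0.13, adjusted p = 0.17). Psmb8 rose by 1.63 ± 0.38 (3.1-fold, adjusted p = 0.0051), Psmb9 by 1.46 ± 0.39 (2.74-fold, adjusted p = 0.011), Tap2 by 1.14 ± 0.22 (2.20-fold, adjusted p = 0.0016) and B2m by 1.11 ± 0.33 (2.16-fold, adjusted p = 0.020). With slide as a term in this fit 1 of 10 genes was higher in TC over T (H2-D1), where 2.72% of all features were, and 4 of 10 in WTC over WT (Tap2, Tapbp, Psmb8 and Psme1), where 9.47% were.

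**Figure D2:**
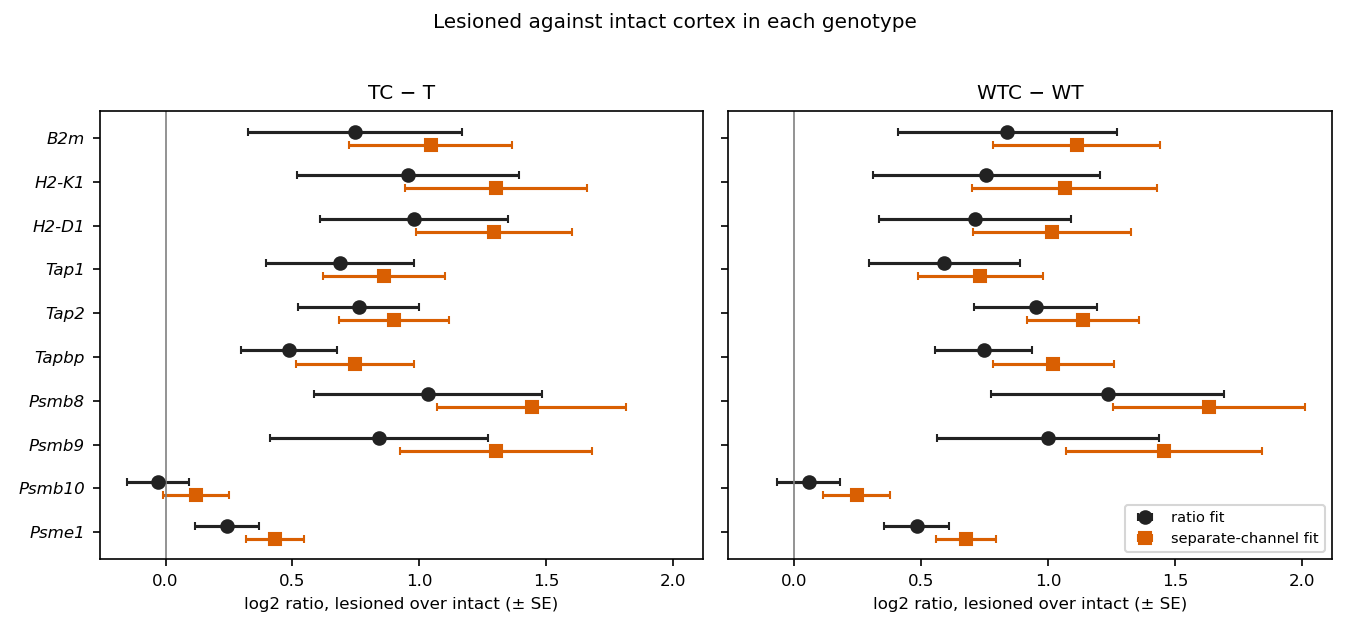
Log2 ratio with its SE (horizontal axis) of each of the 10 genes in TC − T (left) and WTC − WT (right), from the fit on within-array ratios (black circles) and the separate-channel fit (orange squares). The ratios are above 0 for 9 of 10 genes on the left and 10 of 10 on the right in the ratio fit, and Psmb10 is nearest to 0 in both panels.

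Single animals weighed heavily. The levels of TC and T mice did not overlap for 3 of 10 genes (H2-D1, Tap2 and Psme1), where 2.08% of all features had every TC mouse above every T mouse. Without TC113 it was 9 of 10 genes, all but Psmb10, where 6.94% of all features were so, and in the separate-channel fit without this mouse 9 of 10 were higher, where 8.04% of all features were. The count of genes without overlap was taken without TC113 after seeing the data, and leaving out a mouse cannot lower such a count. The levels of WTC and WT mice did not overlap for 3 of 10 genes (Tap2, Psmb8 and Psme1), where 9.12% of all features had every WTC mouse above every WT mouse. Without array A, which held the lowest WTC mouse (WTC116) with WT111, it was 10 of 10, where 14.1% of all features did not overlap. Without array D, which held the highest WT mouse (WT142) with T136, it was 8, where 10.4% of all features did not. Without any other single array it stayed at 3, where 9.12% to 10.3% of all features did not overlap.

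TC113 was low for the class I genes and for phagocyte markers, yet not for astrocyte markers. The mean level of the 10 genes was 11.27 in TC113, while the remaining TC mice ran from 11.73 to 13.10 and T mice from 10.86 to 11.44. The mean of 9 measured markers of microglia and macrophages was 10.55 in TC113, while the remaining TC mice ran from 11.56 to 12.61 and T mice from 10.63 to 10.85. The mean of 8 astrocyte markers was 12.37 in TC113, while the remaining TC mice ran from 12.34 to 12.77 and T mice from 11.60 to 11.81. The mean of 7 markers of cortical neurons was 10.75 in TC113, the lowest of all 22 mice.

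On the arrays themselves, the lesioned and intact mice that were paired directly gave uneven ratios. TC113 over T151 had a median log2 ratio of -0.03 over the 10 genes, with 4 of 10 above 0, and TC107 over T132 had 0.36, with 9 above 0. WTC125 over WT144 had 1.23, with 10 above 0, and WTC116 over WT111 had 0.45, with 9 above 0. The pair that crossed genotype and lesion, TC122 over WT141, had the highest median of the 11 arrays, 2.01, with all 10 genes above 0, Psmb8 at 2.63, H2-K1 at 2.62 and Psmb10 at 0.37. The T mice paired directly with TC mice, T151 and T132, were the highest T mice for B2m, H2-K1, H2-D1, Tap1, Psmb8, Psmb9, Psmb10 and Psme1. Both were on the second slide.

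By slide the TC over T result differed in size. On the first slide alone, whose only TC mouse is TC122, the median log2 ratio of the 10 genes was 2.33. On the second slide alone, where TC113 and TC107 were set against T151 and T132, it was 0.14, with B2m at -0.08 ± 0.28. WTC over WT rests on the first slide for all of its WT mice, and its median there was 0.76. On that slide 1 of 10 genes passed limma's test on ratios in WTC over WT, where 8.19% of all features did. It was Psmb8, at 1.51 ± 0.28 (adjusted p = 0.043).

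**Figure D3:**
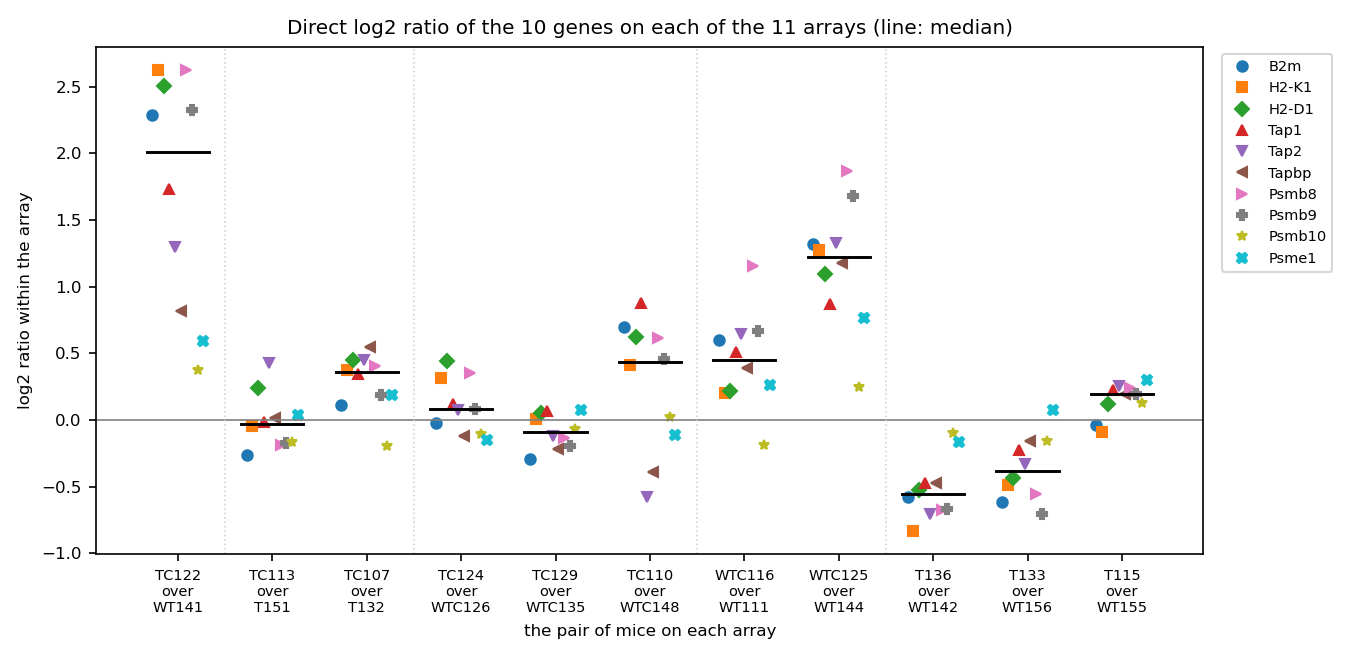
Log2 ratio of each of the 10 genes (symbols) within each of the 11 arrays (horizontal axis, with the mouse on top of the ratio named first), and the median of the 10 (black line). The medians run from -0.55 for T136 over WT142 to 2.01 for TC122 over WT141, and the 3 arrays that pair TC with WTC mice have medians between -0.09 and 0.43.

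The second comparison asked what active CREB in astrocytes did to the class I genes, in lesioned and in intact cortex. In TC over WTC the median log2 ratio of the 10 genes was 0.02, against -0.02 for all features, and 6 of 10 were above 0. It ran from -0.27 ± 0.17 for Tapbp (adjusted p = 0.50) to 0.41 ± 0.33 for H2-D1 (adjusted p = 0.60). In T over WT the median was 0.14, against -0.002 for all features, with 8 of 10 above 0, from -0.04 ± 0.22 for Tap2 to 0.29 ± 0.41 for Psmb8 (adjusted p = 0.98 for Psmb8 and 0.99 for Tap2). The sign of both medians turned with the setting: that of TC over WTC was -0.05 in the separate-channel fit with a slide term and 1.13 on the first slide alone, and that of T over WT was -0.23 on the first slide alone. Striatal and choroid plexus markers had log2 ratios below 0 in both comparisons, from medians of -2.53 to -1.15, and their part was not tested. The SE of these ratios was up to 0.41, so a p above the threshold does not show that genotype left these genes alone.

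In limma's test on ratios, 0 of 10 genes passed in TC over WTC and 0 of 10 in T over WT, where 0% and 0% of all features did. At an unadjusted p under 0.05 there were 0 of 10 in either, among 3837 and 762 of the 25998 features. The separate-channel fit passed 0 of 10 as higher in both, where 0.115% of all features were higher in TC over WTC and 0% in T over WT. The groups overlapped for all 10 genes, where 0.208% of all features had every TC mouse above every WTC mouse and 0.323% had every T mouse above every WT mouse. The direct arrays did not agree in sign. TC110 over WTC148 had a median of 0.43, TC124 over WTC126 0.08 and TC129 over WTC135 -0.09, and T115 over WT155 had 0.19, T133 over WT156 -0.38 and T136 over WT142 -0.55. Tapbp was below 0 on all 3 arrays of TC with WTC, from -0.39 to -0.12, while H2-D1 (0.05 to 0.62), Tap1 (0.07 to 0.88) and H2-K1 (0.004 to 0.41) were above 0 on all 3.

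Whether the lesion acted differently in transgenic mice was tested as the difference of both lesion ratios, TC minus T less WTC minus WT. It had a median of -0.12 over the 10 genes, against -0.02 for all features, with 3 of 10 above 0, from -0.26 ± 0.22 for Tapbp (adjusted p = 0.81) to 0.27 ± 0.43 for H2-D1 (adjusted p = 0.89). The sign of this median was not stable: it was 0.09 with median centring, 0.53 with the labels of channel 2, 0.77 without arrays I, J and K, 1.36 on the first slide alone, and 0.12 without array I, which held TC113 and T151. It passed for 0 of 10 genes in the ratio fit, where 0% of all features passed, and for 0 of 10 as higher in the separate-channel fit, where 0% did. At an unadjusted p under 0.05 there were 0 of 10 genes, among 1386 features.

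**Figure D4:**
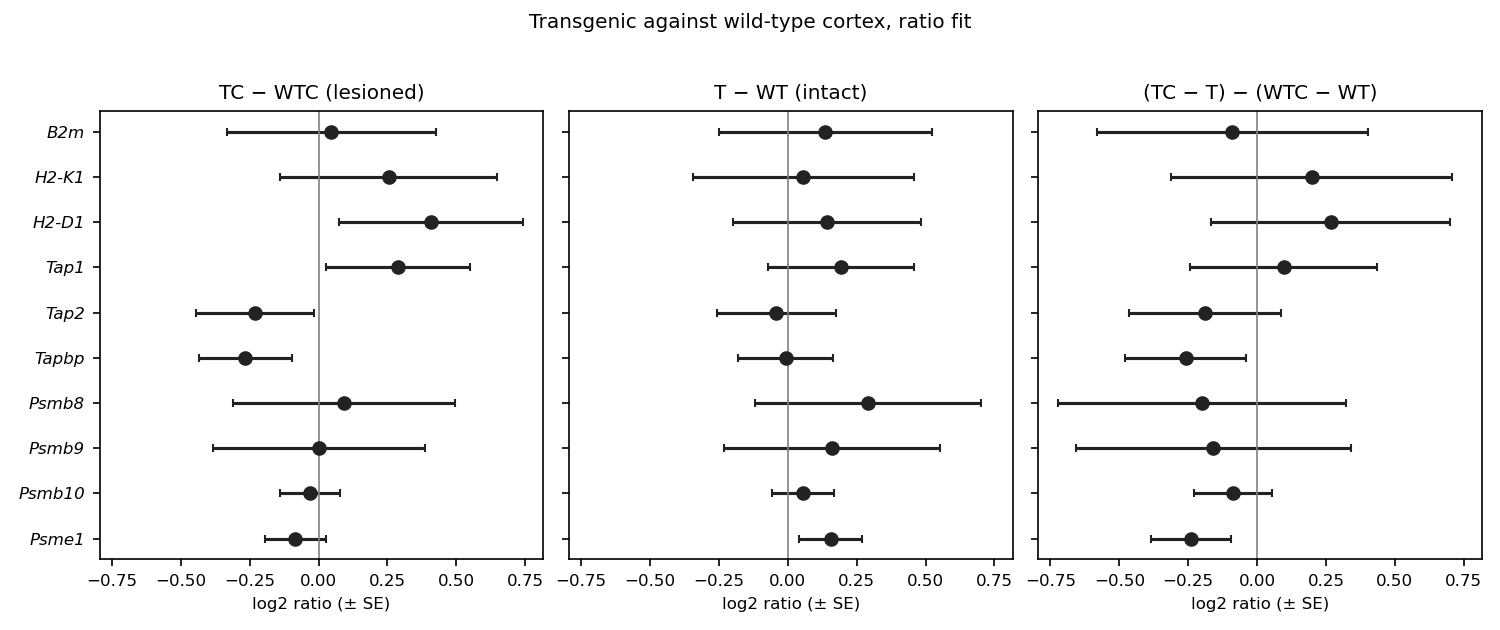
Log2 ratio with its SE (horizontal axis) of each gene in TC − WTC (left), T − WT (middle) and the difference of both lesion ratios (right), from the fit on within-array ratios. The values lie between -0.27 and 0.41, and 0 genes pass in any of the 3 panels.

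Other genes of the pathway were read from lists, chosen as the members were with earlier results known. Over all features, the separate-channel fit had 4.7% higher and 2.63% lower in TC over T, and 14.3% higher and 12.2% lower in WTC over WT. Of 12 measured other class I genes, 0 passed the ratio fit in TC over T or in WTC over WT. In the separate-channel fit 6 were higher and 0 lower in each, with a list median of 0.69 in TC over T and 0.66 in WTC over WT. Those in both were Mr1 and Cd1d1, which present metabolites and lipids, and H2-Q2, H2-Q6 and H2-Q7, to which H2-T10 was added in TC over T and H2-Q4 in WTC over WT. H2-T23, the mouse Qa-1 gene whose product is read by NK cells, had 0.89 ± 0.34 in TC over T (adjusted p = 0.11) and 0.75 ± 0.34 in WTC over WT (adjusted p = 0.11) in that fit. H2-M3, which presents formylated peptides, had 0.52 ± 0.24 in TC over T (adjusted p = 0.19) and 0.48 ± 0.25 in WTC over WT (adjusted p = 0.15).

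The other proteasome genes had ratios nearer to 0. In the separate-channel fit, the standard catalytic subunits Psmb5, Psmb6 and Psmb7, which the immune subunits replace, passed for 0 of 3 in TC over T and 0 of 3 in WTC over WT, and their log2 ratios ran from -0.34 to 0.08 over both comparisons. Of 12 other genes of the 20S core, its assembly factor Pomp among them, 0 passed in TC over T and 1 in WTC over WT, Psma4 at 0.29 ± 0.09 (adjusted p = 0.026). Psme2, the partner of Psme1 in PA28, was higher in both, by 0.59 ± 0.15 in TC over T (adjusted p = 0.024) and 0.75 ± 0.15 in WTC over WT (adjusted p = 0.0021), while the other activator genes Psme3 and Psme4 did not pass.

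Among 5 genes of peptide loading and trimming, 0 passed the separate-channel fit in TC over T and 3 were higher in WTC over WT: Pdia3, a loading chaperone, by 0.89 ± 0.14, Calr, the chaperone calreticulin, by 0.54 ± 0.15, and Erap1, which trims peptides, by 0.31 ± 0.08 (adjusted p = 0.0076). Of 16 measured regulators of class I transcription, 1 was higher in TC over T, Rela, an NF-kB subunit, by 0.41 ± 0.10 (adjusted p = 0.021), and 0 were lower, where 4.7% of all features were higher and 2.63% lower. In WTC over WT, 4 were higher (Nlrc5, Irf1, Rela and Ifngr1) and 2 lower (Creb1 and Rfxap), where 14.3% of all features were higher and 12.2% lower. Nlrc5, the coactivator of class I genes, rose by 1.29 ± 0.39 in WTC over WT (adjusted p = 0.023) and had 1.13 ± 0.39 in TC over T (adjusted p = 0.077). Its 2 probes differ: the dimmer one had log2 ratios of 0.07 ± 0.06 in WTC over WT and 0.09 ± 0.06 in TC over T in the ratio fit, against 0.83 ± 0.37 and 0.67 ± 0.36 for the one used. Irf1, an interferon-induced transcription factor, rose by 1.002 ± 0.25 in WTC over WT (adjusted p = 0.0083) and had 0.47 ± 0.25 in TC over T (adjusted p = 0.24). The interferon genes Ifng and Ifnb1 were not among the features tested. None of these genes of the 6 pathway lists passed the ratio fit.

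Markers of cell types were read beside these results, and their part in them was not tested. Of 9 measured markers of microglia and macrophages, 5 were higher in TC over T and 7 in WTC over WT in the separate-channel fit, where 4.7% and 14.3% of all features were. Among them, Aif1 rose by 1.39 ± 0.37 in TC over T and 2.01 ± 0.38 in WTC over WT. Ptprc, the pan-leukocyte gene, rose by 1.02 ± 0.28 in TC over T and 1.36 ± 0.28 in WTC over WT. The mean level of the list was 10.55 to 12.61 in TC, 11.87 to 12.59 in WTC, 10.63 to 10.85 in T and 10.46 to 10.95 in WT mice. Of 8 astrocyte markers, 4 were higher in TC over T and 5 in WTC over WT, beside the same shares of all features. The astrocyte list's mean level was 12.34 to 12.77 in TC, 12.57 to 12.81 in WTC, 11.60 to 11.81 in T and 11.54 to 11.86 in WT mice.

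T and NK cell markers, 9 of 12 measured, passed for 0 genes in either comparison, with list means of 7.69 to 7.97 in TC, 7.74 to 8.20 in WTC, 7.69 to 7.85 in T and 7.62 to 7.86 in WT mice. Of the measured ones, Cd3g, Cd8b1, Cd3d and Gzmb were well above background in only 5, 6, 7 and 13 of 22 channels. A change in these could be missed. Cd3e, a chain of the T cell receptor complex, had 0.18 ± 0.16 in TC over T and 0.44 ± 0.17 in WTC over WT (adjusted p = 0.51 and 0.054). The probes of Cd8a, which marks the T cells that class I molecules address, were well above background in at most 1 of 22 channels. Of 8 endothelial markers, 0 passed in TC over T, while in WTC over WT 2 were higher (Cldn5 and Kdr) and 1 lower (Slco1a4), where 14.3% of all features were higher and 12.2% lower. The endothelial list means were 9.72 to 10.53 in TC, 9.80 to 10.98 in WTC, 9.66 to 10.14 in T and 9.93 to 10.37 in WT mice. Of 7 markers of cortical neurons, 0 had a log2 ratio above 0 in TC over T in the ratio fit (median -0.77) and 2 in WTC over WT (-0.16). It was 1 in TC over WTC (-0.24) and 5 in T over WT (0.54), and 0 passed that fit after adjustment.

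Dissection markers varied between mice of all groups and also moved with the comparisons, and their part in the results was not tested. In the ratio fit, 0 of 8 striatal markers were above 0 in any of TC over T, WTC over WT, TC over WTC and T over WT, with median log2 ratios of -1.46, -0.80, -1.83 and -1.41. At an unadjusted p under 0.05 these were 7, 2, 8 and 7 of 8, among 3099, 5082, 3837 and 762 of the 25998 features, and 0 passed after adjustment. All 7 choroid plexus markers were above 0 in TC over T (median 0.97) and in WTC over WT (2.12), and 0 of 7 in TC over WTC (-2.53) and in T over WT (-1.15), with 0 passing after adjustment. The mean of 7 choroid plexus markers was 7.51 to 12.85 in TC, 9.08 to 12.98 in WTC, 8.38 to 10.10 in T and 7.96 to 12.89 in WT mice. The mean of 8 striatal markers was 8.89 to 11.34 in TC, 8.60 to 11.99 in WTC, 8.90 to 11.75 in T and 9.37 to 12.68 in WT mice. Among intact mice, WT142, with the highest mean level of the 10 genes (11.55), was also the one with the highest choroid plexus mean. T132 was the highest T mouse for both, at 11.44 for the 10 genes and 10.10 for choroid plexus. WTC116 was the lowest WTC mouse for both, at 11.38 and 9.08. Among lesioned mice, TC110 had the highest mean level of the 10 genes (13.10) and the lowest choroid plexus mean (7.51). TC107, with the highest choroid plexus mean of the TC mice (12.85), was at 11.73 for the 10 genes. WT142 had a microglia and macrophage mean of 10.85, within the 10.46 to 10.95 of the WT mice.

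**Figure D5:**
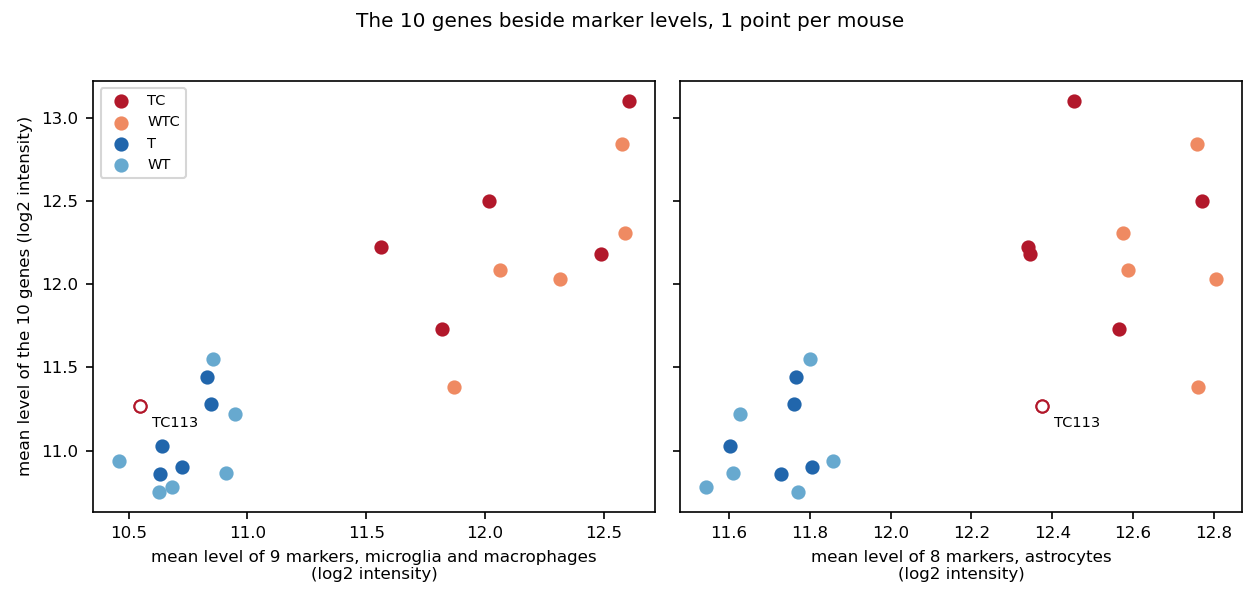
Mean level of the 10 genes (vertical axis, log2 intensity) in each mouse against the mean level of 9 markers of microglia and macrophages (left) and of 8 astrocyte markers (right). TC113 (open circle) lies with the T and WT mice on the left, at 10.55, and with the lesioned mice on the right, at 12.37.

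The 10 genes varied together from mouse to mouse. Over the 22 mice, Pearson's r of each gene with the mean of the other 9 ran from 0.994 for Psmb9 and 0.988 for Psmb8 to 0.814 for Psmb10, a description in which all points share arrays, normalization and the lesion contrast. Within the 11 lesioned mice it was between 0.81 for Psme1 and 0.990 for Psmb9. Within the 11 intact mice it was 0.976 for Psmb9, 0.981 for Psmb8, 0.955 for H2-K1 and 0.954 for B2m, but 0.592 for Tap2, 0.607 for Tapbp and 0.578 for Psme1. Tap2, Tapbp and Psme1 were thus the genes with the lowest r among intact mice.

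Of 16023 other symbols, the 5 with levels most like the mean of the 10 genes over the 22 mice were Irgm1 (r = 0.993), Bst2 (0.993), Oas1a (0.991), Phf11d (0.990) and Phf11b (0.989). Irgm1 is an interferon-induced GTPase, Bst2 encodes tetherin and Oas1a an oligoadenylate synthetase. The r of Irgm1 was 0.984 within the 11 lesioned and 0.979 within the 11 intact mice, and that of Bst2 was 0.981 and 0.978.

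The authors' deposited table, which holds log2 ratios per spot for 3 comparisons, gave larger values than the ratio fit for all 10 genes in TC over T and in WTC over WT. In TC over WTC the authors' deposited table had lower values than the ratio fit for 8 of 10 genes, and Psmb8 (-0.23) and Psmb9 (-0.32) were below 0 there but not in the ratio fit. In the authors' deposited table Psmb8 was at 1.48 in TC over T (adjusted p = 0.04998) and at 1.91 in WTC over WT, and H2-D1 was at 1.37 in TC over T (adjusted p = 0.024). All 10 spots of H2-K1 in the authors' deposited table lay between 1.39 and 1.48 in TC over T, and 9 of the 10 had an adjusted p under 0.05, where 1.97% of all its spots did. The single spots of H2-D1, Tap2 and Psmb8 were under that threshold too in the authors' deposited table, with 6 of 10 spots of Psme1 and 2 of 10 of Tap1, but 0 spots of B2m, Tapbp, Psmb9 and Psmb10 were. The authors' deposited table had 0 spots of the 10 genes under that threshold in TC over WTC, where 11.2% of all its spots were, with Tapbp at -0.56 and Tap2 at -0.52. Its adjusted p-values for WTC over WT were not used, since that column holds numbers above 1. Over all features tested, its values had a Pearson r of 0.969 with the separate-channel fit in TC over T, 0.915 in TC over WTC and 0.965 in WTC over WT. With the ratio fit r was lower, at 0.895, 0.866 and 0.866 in the same order.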

How the data were processed

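Each array compared 2 mice. The authors deposited Agilent Feature Extraction 10.7.3.1 output, per the file headers, from which the median signal and median background of each spot were used, raw intensities on a linear scale. Its LogRatio column, log10 of red over green per the file headers, served as an alternative. A table of log2 ratios and adjusted p-values for 3 comparisons was deposited too, made with limma per the submitters' processing notes, with no version given in the sources used here. In each channel 56.6% to 65.3% of spots stood well above background; precision is limited by the 11 arrays. The series' design text mentions repeated hybridisations, but here a mouse is on 1 array.

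Normexp background correction (offset 50, limma 3.58.1, R 4.3.3) was applied to all spots, and ratios were normalized by loess within arrays. A probe was kept if it was well above background in 5 or more of the 22 channels (35415 probes). Of a gene's probes the one with the highest mean intensity was used, which gave 25998 features, 16033 of them with a symbol from the RefSeq table; H2-K1 had 2 probes and the other members 1. Ratios were fitted with lmFit and eBayes, with WT as baseline, a term each for T, WTC and TC and a term for dye, and tested two-sided with Benjamini-Hochberg adjustment over all features at a threshold of 0.05. Levels per mouse are log2 intensities after loess and Aquantile normalization with the dye effect removed. The separate-channel fit used an intraspot correlation of 0.318. Both fits were tested on simulated data.

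The members and the 13 gene lists were chosen with earlier results of these data known. All 10 members were named in every comparison, with Psme2, Psmb5, Psmb6, Psmb7, H2-T23, H2-Q4, H2-M3, Erap1, Nlrc5, Irf1, Aif1, Ptprc, Cd3e and Cd8a, and the 5 symbols most like the members. A further gene of this rule is not reported here. Other genes are named where a list count is small, after their values were seen. Alternatives covered background correction, normalization, input, filter, probe rule, dye, slide, fit, labels and single arrays.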

Additional observations from a re-analysis of the deposited data

Results flagged for a closer look

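In T mice, Tapbp was at 10.01 in T136, below the other 4 T mice, of which the nearest was at 10.18. Its gap to the nearest mouse, 0.744 of the range of the group, was beyond Dixon's critical value of 0.71 for 5 values. Of 40 groups of levels examined, 1 was beyond its critical value, and chance alone flags about 5% of groups.

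H2-K1 was above 0 on all 3 arrays that pair a TC with a WTC mouse, the lowest at 0.0038, and below 0 on all 3 that pair a T with a WT mouse, the highest at -0.09. All 10 genes were searched for such a pattern, and the difference between these sets of arrays was not tested as such. In the fit over all 11 arrays H2-K1 was above 0 in T over WT too, at 0.06 ± 0.40, and at 0.25 ± 0.39 in TC over WTC (adjusted p = 0.99 and 0.79 in limma's test). The difference of both lesion ratios of H2-K1 in that fit was 0.20 ± 0.51 (adjusted p = 0.93 in limma's test).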

How the results depend on the processing

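Leaving out the background correction, using Feature Extraction's log ratio, other filters on dim probes, the mean of all probes, no dye term or slide as a random block kept 0 of 10 genes passing in every comparison. The number of genes that passed in WTC over WT was 1 on the first slide alone and 1 without arrays I, J and K (Psmb8 in both), where 8.19% and 6.7% of all features passed, and 0 to 1 when arrays were left out 1 at a time, 1 without array I (Tapbp, adjusted p = 0.030), where 5.51% passed. It was 9 in the separate-channel fit, 4 with a slide term and 9 without TC113, where 14.3%, 9.47% and 16.1% of all features were higher. In TC over T it was 7, 1 and 9 in these fits, where 4.7%, 2.72% and 8.04% were.

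The median of TC over T was 2.33 on the first slide alone, 0.14 on the second slide alone, 1.22 in the separate-channel fit without TC113, 1.39 with the labels of channel 2 and 1.83 without arrays I, J and K. That of TC over WTC was 1.13 on the first slide alone and 0.59 with the labels of channel 2, and that of the difference of lesion ratios was 1.36 on the first slide alone, 0.53 with the labels of channel 2 and 0.77 without arrays I, J and K. The cause was not tested, and the first slide holds 1 TC mouse, assumed to vary like the other groups. The median of T over WT was -0.23 on the first slide alone. Leaving out 1 array at a time, the median was 0.47 (without C) to 1.15 (without I) in TC over T, 0.44 (B) to 0.94 (I) in WTC over WT, -0.14 (C) to 0.18 (B) in TC over WTC, -0.04 (C) to 0.36 (E) in T over WT and -0.29 (E) to 0.13 (B) for the difference.

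The number of genes with TC above T in all mice was 0 with the labels of channel 2, 10 without arrays I, J and K, 9 without TC113 (chosen after seeing the data) and 3 to 9 without 1 array, 9 of them without I, where 0.115%, 11.7%, 6.94% and 8.1% of all features were so in these 4 settings. With WTC above WT it was 1 with median centring and 3 to 10 without 1 array, 10 without A, where 6.33% and 14.1% were.

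Signs turned for Psmb10 in WTC over WT with median centring (-0.18) and without 1 array (-0.079 to 0.16), and in TC over T on the first slide (0.45), in the separate-channel fit (0.12), with its slide term (0.021), without TC113 (0.16), with the labels of channel 2 (0.23), without arrays I, J and K (0.24) and without 1 array (-0.13 to 0.053). B2m was at -0.075 in TC over T on the second slide. On the first slide Psmb8 in T over WT was at -0.31 (-0.30 without arrays I, J and K), and Tapbp at 0.20 in TC over WTC and 0.29 for the difference. Tap2 in T over WT was at 0.040 with the labels of channel 2 and -0.14 to 0.17 without 1 array. The ratio fit pairs the 2 mice of each array. Beyond this, no paired analysis was possible because the labels number each mouse singly and share no number between groups. With 11 arrays and the dye term, ratios of about 1 with an SE near 0.4 stayed short of the threshold.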
